A study of Mus musculus with 27 samples.

Results

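The data described here are the RNA levels of 10 enzymes of glycine, serine and threonine use that feed the one-carbon (folate) cycle, namely Gldc, Amt, Tdh, Phgdh, Psat1, Psph, Shmt1, Shmt2, Mthfd2 and Mthfd1l. They are 10 of the 25209 genes listed in the deposited tables, were taken as a list of names, and were chosen by function with the KO against WT fold changes of these data in view. Differences between KO and WT cells are therefore a description. No p is given for them, and whether a member passed the threshold used for all genes (called, an adjusted p under 0.05 by limma) is stated beside the share of all genes that did and supports nothing. RNA was sequenced from V6.5 mouse embryonic stem cells (mESCs) and their differentiated derivatives in 27 libraries, from wild-type (WT) cells and from the Zfp512b knockout clones KO #4 and KO #8. Each stage has WT, KO #4 and KO #8 groups. The naive cells (3 libraries per group, day 0) were grown in 2iLIF, a medium with LIF and a pair of kinase inhibitors. The primed cells (2 libraries per group, day 2) had been in serum medium with LIF for 2 days. The CM cultures (2 libraries per group) are plated embryoid bodies meant to give cardiomyocytes. They had 2 days of priming, 4 days in hanging drops without LIF but with vitamin C, and then 1.5 days on gelatine with vitamin C. The NPC cultures (2 libraries per group, day 10) are embryoid bodies with neural progenitors. They had 2 days of priming, 4 days in hanging drops without LIF and 4 days in suspension with retinoic acid. In both KO lines a triple transcriptional terminator stands behind the third exon of Zfp512b, together with a selection cassette, while WT cells had not passed through this editing and selection. Each KO line is 1 clone, so that the libraries of a line are replicates of that clone, and nothing in the labels tells whether they came from separate cultures. Their spread may thus be technical.

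In this pathway serine is made from the glycolytic intermediate 3-phosphoglycerate by Phgdh, which opens the route, Psat1, which adds the amino group, and Psph, which removes the phosphate. Shmt1 in the cytosol and Shmt2 in mitochondria split serine into glycine and a folate-bound one-carbon unit. Mitochondrial Mthfd2 oxidizes this unit and Mthfd1l releases it as formate, which the cytosol uses for purines and thymidylate. Gldc and Amt are subunits of the glycine cleavage system, which also yields a one-carbon unit, and Tdh starts the breakdown of threonine to glycine and acetyl-CoA. Mouse embryonic stem cells are known for high Tdh and for their need of threonine, and serine synthesis and mitochondrial folate enzymes are known to be high in proliferating cells.

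On the mm9 build the genes lie on 8 chromosomes. The glycine cleavage genes are Gldc at chr19:30172939-30249908 (minus strand) and Amt at chr9:108199184-108203902 (plus strand), and Tdh is at chr14:64111184-64127929 (minus). Of the serine synthesis genes, Phgdh is at chr3:98117093-98143913, Psat1 at chr19:15979168-16021827 and Psph at chr5:130271434-130293129, each on the minus strand. The folate genes are Shmt1 at chr11:60601606-60625220, Shmt2 at chr10:126954195-126959491, Mthfd2 at chr6:83255685-83267600 and Mthfd1l at chr10:6179460-6373423, again on the minus strand. The promoters of the members were looked up in RefSeq (GRCm38.p6, 250 bases before to 50 after the start), where 9 of the 10 genes have an entry. Because all 10 genes were lower in NPCs than in primed cells, 3 short motifs were searched on both strands. The C/EBP-ATF response element, TGATGNAA, bound by the amino acid stress factor ATF4 with C/EBP proteins, is in 3.97% of 32851 promoters and in none of the 9 genes. The E-box CACGTG, bound by MYC among others, is in 7.15% of promoters and also in none of the 9. The GC box GGGCGG, bound by SP factors, is in 35.7% of promoters and in 6 of the 10 promoters listed for the 9 genes. They belong to Amt, Gldc, Mthfd1l, Psat1, Psph and Shmt1, and a further promoter of Psat1 is without the box. The windows of the glycine cleavage genes Gldc (chr19:30175392-30175691, minus strand) and Amt (chr9:108296655-108296954, plus strand), and of the first and the last enzyme of serine synthesis, Phgdh (chr3:98339920-98340219, minus strand) and Psph (chr5:129787204-129787503, minus strand), are given to show windows without a GC box, with 1 and with 3. Capitals mark the GC box on either strand.
Gldc: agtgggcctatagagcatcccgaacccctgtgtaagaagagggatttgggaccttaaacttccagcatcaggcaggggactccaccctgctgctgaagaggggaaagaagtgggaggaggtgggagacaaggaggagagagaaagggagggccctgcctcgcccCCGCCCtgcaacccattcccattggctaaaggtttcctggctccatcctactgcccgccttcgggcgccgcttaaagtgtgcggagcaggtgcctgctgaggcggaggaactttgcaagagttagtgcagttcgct
Amt: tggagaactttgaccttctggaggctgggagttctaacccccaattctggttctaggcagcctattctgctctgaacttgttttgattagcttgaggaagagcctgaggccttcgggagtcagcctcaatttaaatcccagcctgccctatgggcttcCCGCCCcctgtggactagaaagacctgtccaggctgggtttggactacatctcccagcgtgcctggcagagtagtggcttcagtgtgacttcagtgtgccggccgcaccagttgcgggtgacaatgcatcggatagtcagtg
Phgdh: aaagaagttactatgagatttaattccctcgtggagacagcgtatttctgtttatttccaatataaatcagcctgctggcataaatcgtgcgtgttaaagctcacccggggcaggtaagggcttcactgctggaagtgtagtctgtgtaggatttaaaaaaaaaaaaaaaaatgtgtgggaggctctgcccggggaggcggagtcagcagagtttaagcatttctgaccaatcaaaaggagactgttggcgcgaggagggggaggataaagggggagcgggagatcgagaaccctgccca
Psph: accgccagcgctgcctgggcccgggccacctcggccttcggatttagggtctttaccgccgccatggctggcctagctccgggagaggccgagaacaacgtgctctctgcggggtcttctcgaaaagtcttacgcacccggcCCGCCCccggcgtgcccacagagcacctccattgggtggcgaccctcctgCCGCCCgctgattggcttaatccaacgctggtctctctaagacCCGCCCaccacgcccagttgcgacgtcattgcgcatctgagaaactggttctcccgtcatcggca
In Gldc and Amt the box begins 86 and 92 bases before the start, and in Psph the 3 boxes begin 108, 58 and 15 bases before it. A match of letters is a description of the window and not a bound site.

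The deposited tables (8, 1 per clone and stage) give for each gene a base mean, the mean normalized read count over the WT and KO libraries compared. For genes of moderate level the whole reads of each library could be worked out from the base means, which gave Gldc, Amt, Tdh, Psph, Shmt1 and Mthfd2 in NPCs and Amt, Tdh and Psph in CMs. At the other stages, and for Phgdh, Psat1, Shmt2 and Mthfd1l at every stage, only pooled levels are described. Depth, estimated from the base means, was 34.2 to 39.6 M reads (M stands for 1000000) on genes per naive library and 15.1 to 19.4 M reads elsewhere. Zfp512b, the targeted gene, had 1087 and 1006 normalized reads in the WT libraries of CMs, 178 and 203 in KO #4 and 148 and 166 in KO #8. In primed cells it had 1095 and 1150 in WT, 233 and 267 in KO #4 and 220 and 187 in KO #8. Every KO library with recovered Zfp512b reads was thus far below the WT libraries of its stage. Markers separated CMs from the other stages more clearly than NPCs. The cardiac myosin Myh6 was at 282 and 393 ppm (base mean in parts of 1000000 of a table's total) in the CM tables of KO #4 and KO #8 and at 5.32 or less elsewhere. The neurogenic factor Neurog2 was at 6.82 and 6.24 ppm in the NPC tables and at 0.0532 or less elsewhere. Other neural markers did not separate the cultures in the tables of KO #4, where CMs had the higher level of Pax6 (79.3 against 17.5 ppm in NPCs), Sox1 (97.7 against 7.84), Nes (271 against 258) and Tubb3 (87.9 against 79.1). In the tables of KO #8 the same genes were lower in CMs, Pax6 at 4.20 against 17.2, Sox1 at 4.55 against 11.5, Nes at 169 against 261 and Tubb3 at 26.3 against 119.8.

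Some libraries stood apart within their stage. The libraries of a pair are called a and b, where a is the one of greater depth. The KO #8 libraries of NPCs differed from each other more than any other pair. Their mean chi-square was 12.8 per gene, against 2.14 to 6.24 in the other 8 pairs with recovered reads. Library b also carried most reads of stem cell markers. Summed over 6 of the 7 listed naive markers (Zfp42, Klf4, Esrrb, Nanog, Tfcp2l1 and Klf2, none at 0 in any library), NPC library KO #8 b had 3028 normalized reads and KO #8 a had 1824. The WT libraries of NPCs had 1216 and 1929, and those of KO #4 had 1154 and 1221. In CMs, 5 of the 7 markers could be recovered. Their sum was 3710.0 and 2654 in KO #4, 1555 and 1515 in WT and 769 and 718 in KO #8. The neural marker Pax6 had 2707 and 2698 reads in KO #4 CMs, 53.5 and 61.7 in WT and 89.8 and 86.7 in KO #8, while Neurog2 was at 0 in both KO #4 libraries. In NPCs the mean of Pax6 was 149 in WT, 351 in KO #4 and 340 in KO #8. In bulk RNA, fewer cells of a type and less RNA per cell cannot be told apart.

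Over the 4 stages the 10 genes were mostly high in stem cells and lower in the differentiated cultures. Gldc was an exception in the tables of KO #4, at 253 ppm in CMs and 197 in naive cells. Together they took 0.322% and 0.323% of the pooled signal in the naive tables of KO #4 and KO #8 and 0.292% and 0.284% in the primed tables. This share was 0.0501% and 0.0543% in NPCs and 0.106% and 0.0767% in CMs. Levels between stages are given in ppm, first for the table of KO #4 and then for that of KO #8. Both tables of a stage hold the same WT libraries and are not independent.

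**Figure D1:**
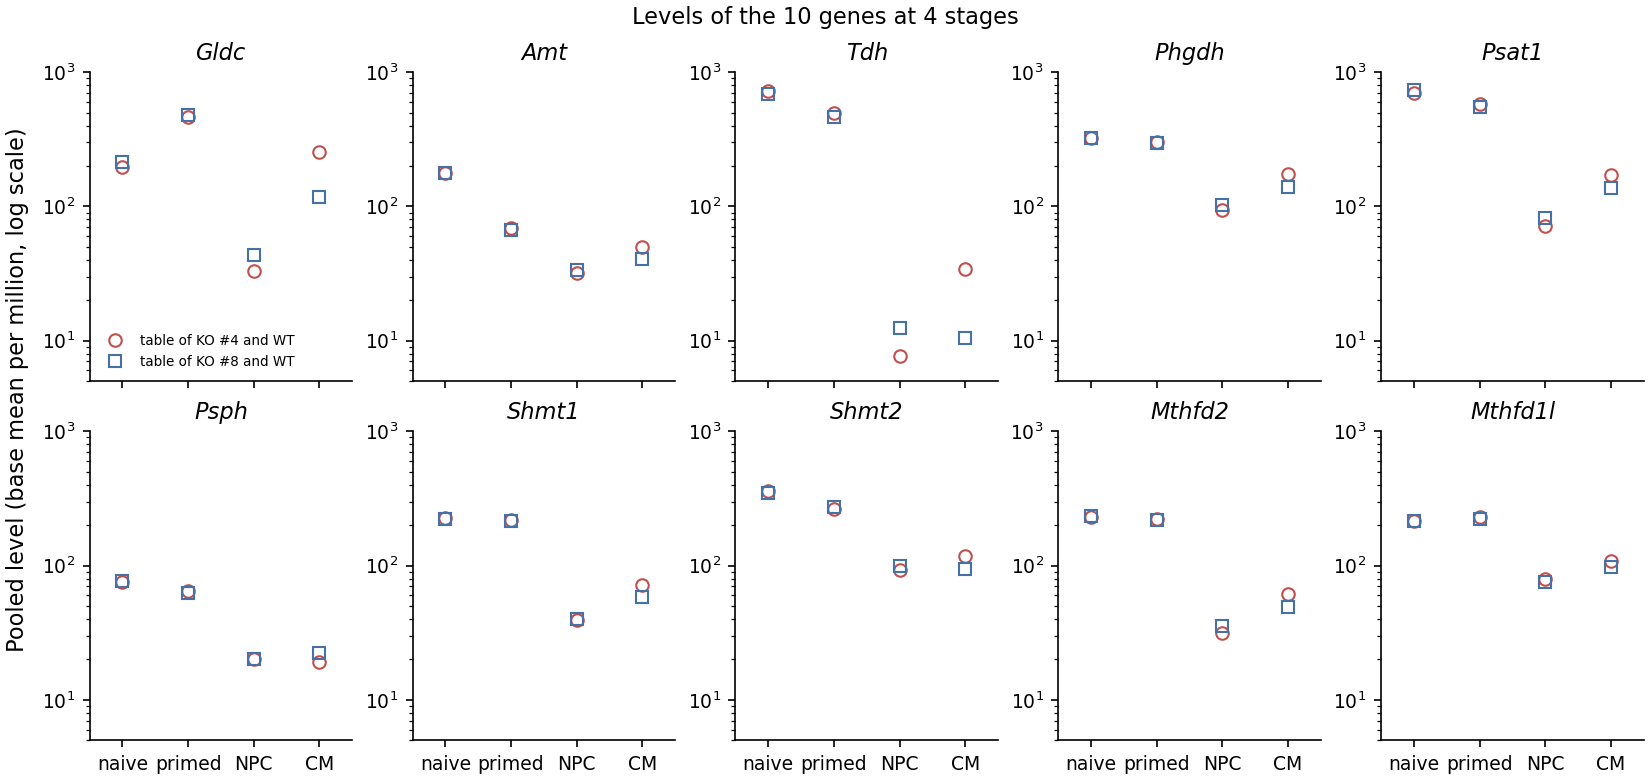
Pooled level of each of the 10 genes (base mean in ppm of the table's total, log axis) at the 4 stages, with a circle for the table of KO #4 and WT and a square for that of KO #8 and WT. All 10 genes are lower in NPCs than in primed cells, and Gldc and Tdh show the widest gaps between both tables in CMs.

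From naive to primed cells most of the 10 genes stayed within 2-fold. Gldc, the glycine decarboxylase, was the exception upwards, at 197 and 214 ppm in naive and 461 and 479 in primed cells, that is 2.34-fold and 2.24-fold higher. Amt, its partner in the same complex, differed the other way, with 177 and 178 in naive and 68.7 and 67.2 in primed cells, 2.58-fold and 2.64-fold lower. The glycine cleavage genes thus differed in opposite directions between these states. Pooled levels of stages have no replicates and were not tested. Tdh was at 723 and 690.0 in naive and at 501 and 460.4 in primed cells, a difference of 1.44-fold and 1.50-fold. The other 7 genes differed by at most 1.36-fold. Of all 13024 genes with at least 1 ppm in any of the tables compared, 10.9% were at least 2-fold higher and 9.87% at least 2-fold lower in primed cells in both tables, so 1 of 10 in each direction is close to this background.

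Between primed cells and NPCs all 10 genes were at least 2-fold lower in both tables. In the same comparison 15.0% of 14555 genes were at least 2-fold lower and 36.8% at least 2-fold higher. Markers of several cell types differed along with them. Of the naive markers 6 of 7 were at least 2-fold lower (median log2 ratio -3.84). Of the neural progenitor markers 4 of 6 were at least 2-fold higher and 0 lower in NPCs (median 2.85). All 3 fibroblast-like (7.14), all 4 endoderm (4.97) and 3 of 4 endothelium and blood markers (8.04) were also at least 2-fold higher. Pdgfra, for example, was at 2.15 and 1.72 ppm in primed cells and at 273 and 271 in NPCs. In CMs against primed cells 6 of 7 naive markers were lower (-3.38), while all 7 cardiomyocyte markers were higher (7.07). Of the fibroblast-like markers 3 of 3 (8.72), of endoderm 4 of 4 (7.73) and of endothelium and blood 3 of 4 (8.98) were higher. Of 4 neural progenitor markers with at least 1 ppm, 1 was higher (1.83). The part of these cells in the lower levels of the 10 genes was not tested. Tdh showed the largest difference, from 501 and 460.4 ppm to 7.69 and 12.4, a 65.1-fold and 37.0-fold difference. Gldc went from 461 and 479 to 33.1 and 43.2, or 13.9-fold and 11.1-fold. Amt was the member nearest to the limit, from 68.7 and 67.2 to 32.1 and 33.6, which is 2.14-fold and 2.00-fold. The RNA of Tdh and Gldc thus showed the widest differences of the 10.

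The serine synthesis genes were lower in NPCs to unequal degrees. Psat1 went from 583 and 551 ppm to 71.4 and 82.7, that is 8.17-fold and 6.66-fold lower. Phgdh, the first enzyme, went from 303 and 295 to 93.5 and 102, only 3.24-fold and 2.90-fold lower. Psph went from 64.2 and 62.9 to 20.1 and 20.1, a 3.19-fold and 3.13-fold difference. Psat1 thus showed the widest difference of this route in both tables.

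Among the folate enzymes, Mthfd2 was at 224 and 219.5 ppm in primed cells and at 31.2 and 35.7 in NPCs, 7.20-fold and 6.15-fold lower. Mthfd1l, which acts behind it in mitochondria, went from 230.0 and 224 to 79.6 and 74.8, a difference of 2.89-fold and 2.99-fold. Cytosolic Shmt1 went from 218 and 216 to 39.6 and 39.7, or 5.49-fold and 5.44-fold lower. Mitochondrial Shmt2 went from 264 and 271 to 92.2 and 98.8, or 2.86-fold and 2.74-fold lower. The cytosolic enzyme thus showed the wider difference of this pair.

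Between NPCs and CMs only Gldc differed by 2-fold or more in both tables, 7.65-fold and 2.73-fold lower in NPCs, beside 8.72% of 14565 genes lower and 11.2% higher. In CMs the genes were also below primed cells, but 7 of 10 rather than all passed the 2-fold limit in both tables, beside 11.7% of 14437 genes at least 2-fold lower and 29.5% at least 2-fold higher. Tdh was at 34.0 and 10.5 ppm, which is 14.7-fold and 44.0-fold below primed cells. The folate genes Shmt1 (71.1 and 58.3), Shmt2 (117 and 93.8), Mthfd2 (61.0 and 49.1) and Mthfd1l (109 and 97.6) were 2.12-fold to 4.47-fold below. Psat1, at 173 and 137, and Psph, at 19.1 and 22.2, were 2.83-fold to 4.02-fold below. The 3 genes that did not pass the limit in both tables were Amt, at 50.3 and 40.8 ppm, Phgdh, at 175 and 139.7, and Gldc. Gldc was 4.07-fold below primed cells in the tables of KO #8 but only 1.82-fold in those of KO #4, so that this gene differed between the clones' tables. With stages scaled by the median of ratios over genes instead of by totals, which shifts the median gene by 0.43 on the log2 scale for NPCs and by 0.26 for CMs against primed cells, 9 of 10 genes were at least 2-fold lower in CMs, and the count for NPCs remained 10.

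The order of the genes changed with the stage. Per kilobase of exon, Tdh had the highest mean level of the 10 in naive (270.1 ppm per kilobase) and primed cells (184), and the lowest in NPCs (3.85). In CMs it was lowest in the table of KO #8 (4.00) but not in that of KO #4, where it was at 13.0 and Psph at 10.5. Psat1 was next in both stem cell states, at 168 and 133. Shmt2 and Phgdh led in NPCs at 41.9 and 39.3 and stood within a range of the 2 tables that overlaps. Phgdh led in CMs at 63.3. Neither Amt nor Gldc kept its place, since Amt was above Gldc in naive cells at 104 against 54.8, whereas in primed cells Gldc was at 125 and Amt at 39.8.

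A direct comparison with library values was possible between WT NPCs and WT CMs for 3 members. These WT libraries also entered the KO against WT fold changes in view when the genes were chosen. The adjusted p values below are thus not fully independent of that choice. Amt had 418 and 478 normalized reads in NPCs and 708 and 759 in CMs, 1.64-fold lower in NPCs (log2 difference -0.71 ± 0.09 SE, n = 2 against 2, adjusted p = 1.08e-05 by limma). Tdh had 73.5 and 126 reads in NPCs and 286 and 318 in CMs, 3.11-fold lower in NPCs (-1.64 ± 0.35, adjusted p = 0.00112 by limma). Psph had 265 and 340 in NPCs and 360 and 290 in CMs, and these groups overlapped (-0.11 ± 0.14, adjusted p = 0.555 by limma). In this contrast 52.8% of 8941 genes were called at an adjusted p under 0.05, with 29.3% lower and 23.5% higher in NPCs, so that 2 of 3 says little about the list. Scaling by total reads, which shifts NPC libraries by -0.31 to -0.26 and CM libraries by -0.02 to 0.02 on the log2 scale, changed Amt to -0.43 and Tdh to -1.36, both still called, and Psph to 0.17. Without a filter on low counts Tdh had an adjusted p of 0.0577 by limma.

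The same stage contrast in the KO lines is given as a description. Amt was lower in NPCs than in CMs in both, with a log2 difference of -1.10 ± 0.09 in KO #4 and of -0.42 ± 0.09 in KO #8. Psph differed by -0.30 ± 0.14 in KO #4 and by -0.73 ± 0.14 in KO #8. Tdh was lower in NPCs in KO #4 (-2.82 ± 0.35) but higher in KO #8 (1.94 ± 0.35). With total scaling the value of Amt in KO #8 was -0.14. The background was 58.5% of genes called in KO #4 (30.3% lower and 28.3% higher) and 51.6% in KO #8 (27.4% lower and 24.1% higher). KO #8 thus had a Tdh order opposite to that of WT. For Amt and Tdh the NPC and CM libraries did not overlap in any of the 3 lines, while those of Psph overlapped in WT. How many of all genes separate this way was not counted, so nothing is read from it.

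In NPCs the library values of Gldc and Tdh were highest in KO #8. Gldc had 411 and 496 normalized reads in WT, 469 and 520 in KO #4 and 624 and 928 in KO #8. Both KO #8 libraries lay above all others, while KO #4 overlapped WT. The log2 difference from WT was 0.75 ± 0.16 (SE, n = 2 against 2) in KO #8 and 0.13 ± 0.16 in KO #4. Tdh had 73.5 and 126 reads in WT, 141 and 101 in KO #4 and 154 and 354 in KO #8, with a log2 difference of 1.27 ± 0.36 in KO #8 and 0.30 ± 0.36 in KO #4. The value of 354 belongs to library KO #8 b, which also had the highest marker sum of 3028, while KO #8 a, with 1824, had a lower sum than WT b with 1929. Without that library the difference of KO #8 from WT was 0.47 for Gldc and 0.67 for Tdh, and neither was called any longer. Without WT library a it was 0.62 for Gldc and 0.89 for Tdh, again without a call. The part of the stem cell markers in these values was not tested.

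The other 4 recovered genes differed less in NPCs. Mthfd2 had 407 and 500 reads in WT, 421 and 459 in KO #4 and 556 and 573 in KO #8, with the KO #8 libraries above the rest (log2 difference 0.32 ± 0.12). Amt had 418 and 478 in WT, 487 and 457 in KO #4 and 485 and 535 in KO #8. The ranges of WT and KO #4 overlapped, and KO #8 lay just above WT (0.19 ± 0.09). Psph, with 265 and 340 in WT, 254 and 293 in KO #4 and 281 and 261 in KO #8, overlapped in all groups. Shmt1 overlapped as well, with 511 and 630 in WT, 574 and 554 in KO #4 and 536 and 587 in KO #8. Of the 6 genes, 2 were called in KO #8 and 0 in KO #4, beside 10.7% of 9802 genes in KO #8 (7.62% higher and 3.12% lower) and 7.53% in KO #4 (4.20% higher and 3.33% lower). Between the clones Gldc differed by -0.62 and Tdh by -0.97 (KO #4 minus KO #8, log2), neither of them called. These values were -0.34 and -0.37 without library KO #8 b and -0.91 and -1.56 without KO #8 a, where both were called. The background was 3.09% of genes called, with 2.63% lower in KO #4. Since the KO contrasts served to choose the genes, nothing is read from the counts.

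**Figure D2:**
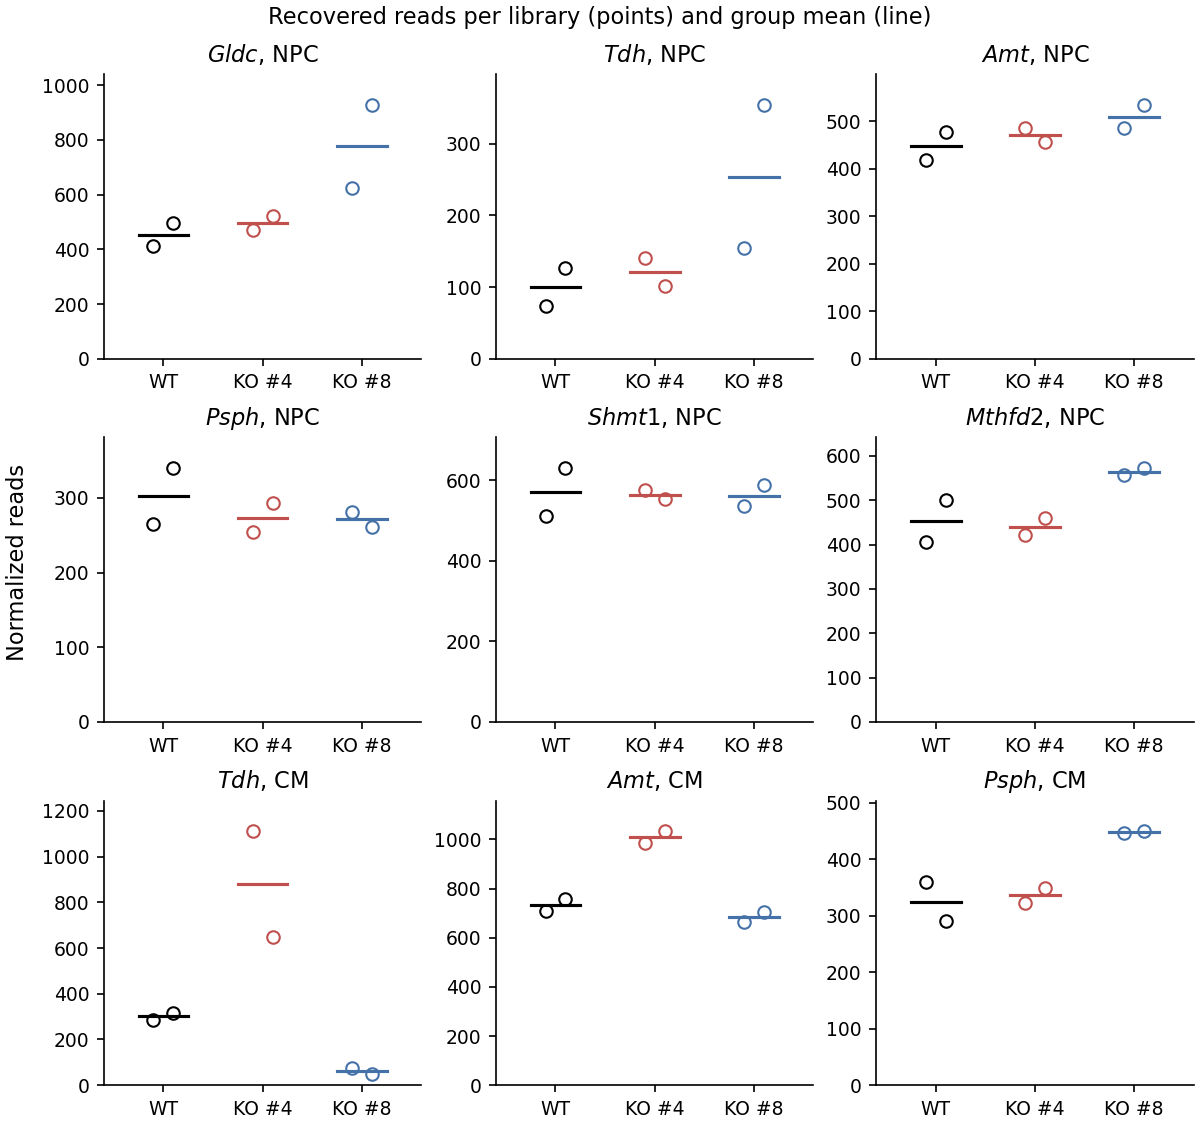
Normalized reads (linear axis from 0) of the members with recovered reads, 6 in NPCs and 3 in CMs, with 1 circle per library (n = 2 per group) and a line at the group mean for WT, KO #4 and KO #8. Gldc and Tdh in NPCs are highest in KO #8, and in CMs Tdh is at 647 and 1112 in KO #4 and at 48.3 and 74.6 in KO #8.

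In CMs the clones lay on opposite sides of WT in Tdh. It had 286 and 318 normalized reads in WT, 1112 and 647 in KO #4 and 74.6 and 48.3 in KO #8. No group overlapped another, which is a description of 2 libraries per group. The log2 difference from WT was 1.49 ± 0.35 in KO #4, a 2.81-fold higher level, and -2.31 ± 0.35 in KO #8, a 4.96-fold lower one. Without the KO #4 library with 1112 reads the former was 1.10, which was not called. KO #4 also had the highest sums of the naive markers and KO #8 the lowest, in the same order as Tdh, and Pax6 was also highest in KO #4. The part of either in the result was not tested. The single markers were not all in this order, since Klf4 had 258 and 267 reads in WT, 109 and 84.5 in KO #4 and 161 and 170 in KO #8.

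**Figure D3:**
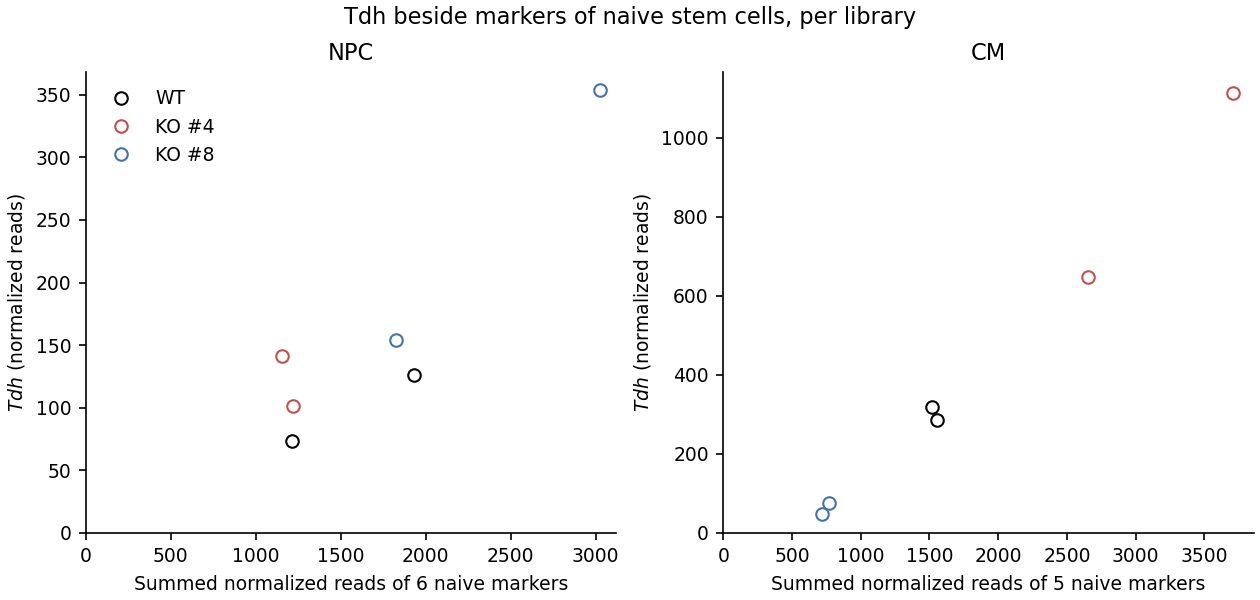
Normalized reads of Tdh (vertical) against the summed normalized reads of the recovered naive stem cell markers (horizontal), 1 circle per library, for NPCs (6 markers) and CMs (5 markers). In NPCs the library with the highest marker sum (3028) has the highest Tdh value (354), but the other NPC libraries are not in the same order on both axes. In CMs the groups KO #8, WT and KO #4 follow each other on both axes.

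Amt and Psph were recovered in CMs too. Amt had 708 and 759 reads in WT, 987 and 1034 in KO #4 and 664 and 704 in KO #8, a log2 difference of 0.46 ± 0.09 from WT in KO #4 and of -0.10 ± 0.09 in KO #8. KO #4 was above the other libraries, and KO #8 just below WT. Psph had 360 and 290 in WT, 323 and 349 in KO #4 and 447 and 450 in KO #8, with 0.06 ± 0.14 in KO #4 and 0.47 ± 0.14 in KO #8. It was the only member of the 3 with its highest values in KO #8. The 3 genes were called in 2 cases in KO #4 and in 2 cases in KO #8, beside 49.8% of 9440 genes in KO #4 (23.7% higher and 26.1% lower) and 18.9% in KO #8 (9.07% higher and 9.80% lower). Between the clones Tdh differed by 3.80, Amt by 0.56 and Psph by -0.42 (KO #4 minus KO #8, log2), beside 49.0% of genes called, 23.7% higher and 25.3% lower in KO #4. Nothing is read from these counts. The Psph call in KO #8 was lost without WT b, KO #8 a or KO #8 b, and that between the clones without any 1 of the 4 libraries.

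For the genes without library values the clones can be compared through the base means of a stage. Both tables contain the same WT libraries, so that, on a common scale, the ratio of their base means lies closer to 1 than the ratio of the clones themselves. Tables were scaled to each other by the median ratio over genes whose base means reached 100 in both, and differences of 1.25-fold or more were counted over genes that reached 100 in either. In naive cells none of the 10 reached this limit (background 2.09% of 10925 genes). The lowest ratio of KO #4 to KO #8 was 0.92, for Gldc with base means of 7123 and 7707, and the highest was that of Tdh, with 26092 and 24851. In primed cells none reached it either (background 0.616% of 9901 genes), with ratios between 0.96 for Gldc and 1.09 for Tdh. On the scale of the shared WT libraries, the mean of Gldc in naive KO #4 was 1132 normalized reads below that in KO #8.

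In NPCs Gldc and Tdh passed the limit, with ratios of 0.77 and 0.62 (background 5.16% of 11376 genes). Psat1, at 0.87, Mthfd2, at 0.88, Phgdh, at 0.92, and Shmt2, at 0.94, were on the same side within the limit, while Mthfd1l was at 1.07. In CMs Gldc had a ratio of 2.14, Tdh of 3.24 and Psat1 of 1.26 (background 25.4% of 11404 genes). Phgdh, with base means of 3148 and 2524, fell just short of the limit and Psat1, with 3117 and 2478, just passed it. Shmt1, Shmt2, Mthfd2, Amt and Mthfd1l were between 1.11 and 1.24, and Psph alone was below 1, at 0.85. The share of members past the limit in CMs, 3 of 10, is near this background.

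The base means set limits for Gldc in CMs. The tables were put on the scale of their shared WT libraries for this. As these count in both, the mean of KO #4 exceeded that of KO #8 by 4834 normalized reads and was at least that high, while the WT mean was at most 4263. The Gldc level of KO #4 in CMs was thus at least 1.13-fold that of WT on this scale. KO #4 also carried the higher naive marker sums in CMs (3710.0 and 2654) and Pax6 values (2707 and 2698), and their part in the result was not tested.

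**Figure D4:**
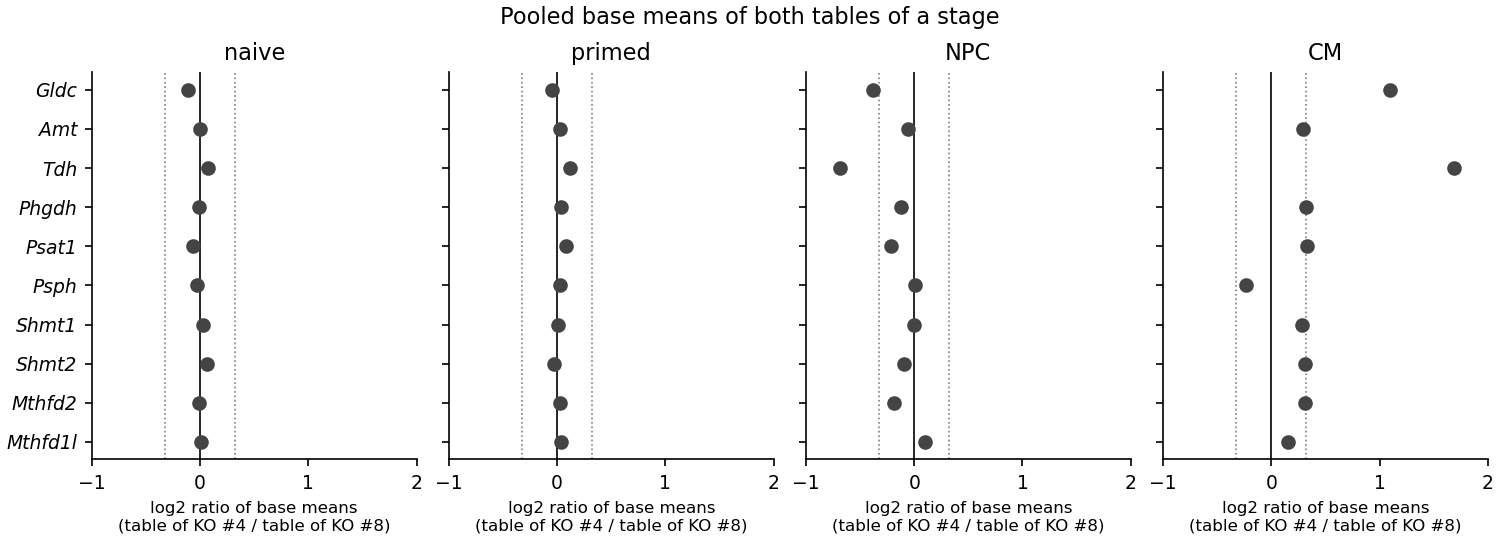
log2 ratio of the base mean in the table of KO #4 to that of KO #8 for each member at the 4 stages, 1 point per gene, with dotted lines at 1.25-fold in either direction. All points lie within the dotted lines in naive and primed cells, Gldc and Tdh are to the left of them in NPCs, and Gldc and Tdh are far to the right in CMs.

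A list of 57 further genes of this metabolism and of its stress response was described beside the members. Of 50 with at least 1 ppm, 25 were at least 2-fold lower and 6 at least 2-fold higher in NPCs than in primed cells in both tables, with a median log2 ratio of -1.01 against 0.47 over all genes (-2.06 for the members). In CMs 20 were lower and 6 higher. From naive to primed cells 10 were lower and 1, Gnmt, higher. Among the lower ones Gcsh, the hydrogen carrier of the glycine cleavage system, had log2 ratios of -1.54 and -1.48 in NPCs against primed cells, and Mthfd1, the cytosolic folate enzyme, -2.60 and -2.47. The stress factor Atf4 had -1.40 and -1.25, and its target Asns, asparagine synthetase, -2.33 and -2.01. In contrast, Mthfd2l, the paralog of Mthfd2, had 3.33 and 3.75. These genes were named after their values were seen.

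In WT NPCs against WT CMs 27 list genes had library values, of which 5 were higher and 8 lower (limma), beside 52.8% of all genes called. The largest difference was that of Sardh, mitochondrial sarcosine dehydrogenase, with a mean of 338 reads in NPCs and 41.5 in CMs (log2 difference 3.00 ± 0.81, adjusted p = 0.00450 by limma, and 0.0549 without a filter on low counts). Aldh1l1, which removes one-carbon units from folate, had means of 5.94 and 56.3 (-2.96 ± 0.46, adjusted p = 3.55e-05 by limma). Pipox, which oxidizes sarcosine and pipecolate, had 9.19 and 40.6 (-2.05 ± 0.44, adjusted p = 0.00105 by limma). Srr, serine racemase, had 338 and 130 (1.37 ± 0.18, adjusted p = 6.51e-06 by limma), and the cystine transporter Slc7a11 had 142 and 359 (-1.34 ± 0.23, adjusted p = 0.000102 by limma). In KO against WT, 0 of 30 list genes were called in KO #4 NPCs, 2 in KO #8 NPCs, 14 of 28 in KO #4 CMs and 7 in KO #8 CMs, beside 7.53%, 10.7%, 49.8% and 18.9% of all genes. Gcat, which acts directly after Tdh, had means of 558 in WT CMs, 1041 in KO #4 and 794 in KO #8, above WT in both clones, where Tdh was above WT in KO #4 alone (Gcat was named after its values were seen).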

How the data were processed

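Per the submitters' processing notes, the authors used Trim Galore 0.6.7 for trimming, HISAT2 2.2 for alignment on the mm9 build, featureCounts for the gene counts and DESeq2 1.46.0 for the comparison of a clone with WT. Strand and multi-mapping settings of the counting are not given in the sources used here. The deposited values are 8 tables of 25209 genes, whose base mean column is a signal, the mean normalized count over the WT and KO libraries of a stage as the authors scaled them. The other 5 columns hold the authors' own comparison of KO with WT (log2 fold change, standard error, Wald statistic, p-value and adjusted p-value) and were not used, so that KO against WT is not given here for naive and primed cells. Stage and clone of a table were taken from its name. Groups came from the sample labels.

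Reads per library were recovered from the base means. A gene with 1 read in a library shows what a read of that library is worth, and the WT libraries were recognized because their reads agree in both tables of a stage. The 6 read numbers of a gene were then solved as whole numbers from both base means, and kept where 1 solution had a posterior above 0.999 with a spread parameter of 0.2 between libraries. This gave 14532 genes in primed cells, 14662 in NPCs and 14023 in CMs, all genes with a base mean up to 500, and 17 of 9727 tried above 1000. Both the recovery and the fit were tested on simulated data. For the fit this was done in the contrast of WT NPCs with WT CMs. A simulated log2 difference of 0.5 was found in 7% of 100 genes, and a difference of 1 in 56% of 100. Among 8194 genes left without a simulated difference, 2 were called. The fit thus misses many differences of this size, and a gene that is not called may still differ. The 18 libraries carry no replicate number, and a is only the name of the deeper library of a pair. Naive values (9 libraries in 2 base means) were left pooled. The recovered genes leave out the highly expressed ones, and counts of called genes refer to the rest.

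Recovered reads were scaled by median-of-ratios size factors, filtered at a mean of at least 10, and fitted as log2(reads + 1) with limma 3.58.1 (R 4.3.3, eBayes with trend) over all 18 libraries in 9 groups, with Benjamini-Hochberg adjustment over all genes tested. Fold changes are on this log2 scale, which understates those of low genes. The replicates of every group differed by more than sampling noise. Pooled levels were divided by the total of the table, and exon lengths came from GENCODE M1 on mm9. Python 3.11.15 (numpy 2.4.6, numba 0.67.0) served for the rest. The members, the gene lists and the tests were chosen with earlier results of these data known. Named are the 10 members, Zfp512b and, of the pathway list, the 5 genes with the largest difference past an adjusted p of 0.05 between WT NPCs and CMs. Other names are marked as chosen after their values were seen. The alternatives tried were a pseudocount of 5, scaling by totals, no filter, voom weights, fits of fewer groups, leaving out each library and other scalings of the pooled tables. One marker of the lists is not reported here.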

Additional observations from a re-analysis of the deposited data

Results flagged for a closer look

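Tdh differed between WT and KO #8 in the direction of its difference between NPCs and CMs, with every library on its side. The log2 difference (NPC minus CM) was -1.64 in WT and 1.94 in KO #8. In CMs Tdh was on opposite sides of WT in both clones, at 1.49 in KO #4 and -2.31 in KO #8. Amt in CMs showed the same split to a small extent, at 0.46 in KO #4 and -0.10 in KO #8, and the latter is about as large as its standard error. The differences between these differences were not tested, and each group has 2 libraries. How many of all genes separate in this way was not counted, so nothing is read from the separation. The stem cell marker sums given beside Tdh go with it between the groups in CMs and in NPC library KO #8 b. The other NPC libraries are not in the same order for Tdh and the marker sums.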

How the results depend on the processing

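No paired analysis was possible because the libraries whose reads were recovered carry no replicate number. The reads that could be recovered were the same with a spread parameter of 0.1, an alternative chosen after seeing the data, as was scaling on the shared WT libraries. Pooled counts of members kept within 1.5 times of their value under every scaling, between 2 and 4 for KO #4 against KO #8 in CMs and 9 in place of 7 for CMs against primed cells.

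In NPCs the number of genes called depended on the settings. Without a filter it was 439 in place of 738 for KO #4 against WT, 621 in place of 1053 for KO #8 against WT and 167 in place of 303 between the clones. With voom weights it was 433 for KO #4 against WT and 65 between the clones, and with the libraries of the stage alone 125 between the clones. Leaving out 1 library gave 323 to 412 for KO #4 against WT, 425 (without WT a) to 1220 for KO #8 against WT and 96 to 661 between the clones in NPCs, and 943 to 1205 for KO #8 against WT in CMs. The cause was not tested.

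Of the members, Psph between WT NPCs and CMs was at 0.17 with total scaling and between -0.28 and 0.07 with a library left out. Other values near 0 changed sign with a library left out. For KO #4 against WT in NPCs these ranges were -0.01 to 0.26 for Gldc, -0.02 to 0.18 for Amt, -0.08 to 0.69 for Tdh, -0.32 to 0.04 for Psph, -0.16 to 0.14 for Shmt1 and -0.19 to 0.11 for Mthfd2. For KO #8 against WT in NPCs they were -0.33 to 0.03 for Psph and -0.17 to 0.13 for Shmt1, between the clones -0.09 to 0.11 for Psph and -0.06 to 0.07 for Shmt1, and for KO #4 against WT in CMs -0.10 to 0.21 for Psph. The Tdh call of KO #8 in NPCs was also lost without a filter, with voom weights and with the libraries of the stage alone. Without a filter the calls of Gldc in KO #8 NPCs, of Tdh in KO #4 CMs and of Psph in KO #8 CMs and between the clones in CMs were lost. With 2 libraries per group, a lone library left in a group is assumed to vary like the others.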
